A study of Mus musculus with 44 samples.

Results

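CTCF peaks at the promoters of protein-coding genes were examined in *Setdb1* KO and WT mouse embryonic stem cells (ESCs). A peak was included when its summit, the base with the most ChIP fragments, lay on an autosome and within 1 kb of an annotated transcript start of a protein-coding gene (GENCODE vM21, mm10). The *Setdb1* KO list held 5995 such promoter peaks among 58087 autosomal peaks, and the WT list held 4586 among 43284. Peaks beside a start on the X or Y chromosome, 107 in *Setdb1* KO against 62 in WT, were left out. The *Setdb1* KO cells had been given 800 nM 4-OHT for 4 days, which deletes the conditional *Setdb1* allele, and were harvested on day 6. 4-OHT is named for the conditional KO cells and not for the WT cells. Both are of the TT2 line (C57BL/6/CBA F1), whose WT cells are 1 clone in the study's methods, and were grown with serum and LIF. CTCF was precipitated with an antibody from Active Motif. Each condition had 1 peak list from 1 library, which gives no replicate error and no test between conditions, and the intervals below are 95% intervals that cover counting error only. A peak list carries no expression values, and neither the deletion of *Setdb1* nor the ESC identity could be checked in it. Second CTCF libraries and the other assays of the series were not analysed here.

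CTCF is a zinc finger protein that binds a long GC-rich motif and halts cohesin as it extrudes chromatin loops, so that its sites form insulators and loop anchors. At promoters it is known for placing a loop anchor beside the start, as at the clustered protocadherin genes, and its binding is sensitive to methylation of CpGs in the motif. SETDB1 is a histone methyltransferase that deposits H3K9me3, largely at retroelements and other repressed loci, and the comparison asks where CTCF was bound after its loss.

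Sequences at 3 strong sites show how the motif sits beside a start. *Vps36* encodes a subunit of the ESCRT-II complex of endosomes, *Nipsnap2* a mitochondrial protein, and *Dpep3* a membrane dipeptidase of the testis. The sequences run 5′ to 3′ on the strand of the gene, with the 20 bp motif match and the base of the transcript start in capitals (GRCm38.p6, RefSeq). The first and second are among the sites with the most CTCF in both lists, and the last is a site listed only in *Setdb1* KO.
*Vps36*, chr8:22192742-22192819, plus strand: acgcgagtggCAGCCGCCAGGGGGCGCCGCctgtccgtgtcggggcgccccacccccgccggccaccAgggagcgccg
*Nipsnap2*, chr5:129724982-129725073, plus strand: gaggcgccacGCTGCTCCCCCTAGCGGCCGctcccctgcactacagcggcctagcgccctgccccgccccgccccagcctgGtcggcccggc
*Dpep3*, chr8:105979419-105979535, minus strand: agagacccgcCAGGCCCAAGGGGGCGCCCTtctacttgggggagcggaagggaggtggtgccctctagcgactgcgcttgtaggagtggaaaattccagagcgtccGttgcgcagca
The motif of *Vps36* and that of *Dpep3* read in the direction of the gene, and that of *Nipsnap2* reads against it.

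Most promoter CTCF of *Setdb1* KO cells was also listed in WT cells. Of the 5995 promoter peaks in *Setdb1* KO, 4393 shared 1 bp or more with a WT peak (shared) and 1602 did not (KO-only), a KO-only share of 26.7% (25.6 to 27.9). Over all autosomal *Setdb1* KO peaks the share was 28.5%, and away from promoters it was 28.7% (28.3 to 29.1). In the lists as deposited the promoter share was thus close to that of the genome and slightly below it. With both lists held to the same length the promoter shares were 8.51% (7.71 to 9.39) KO-only and 14.5% (13.5 to 15.5) WT-only. Other autosomal peaks were then 11.8% (11.5 to 12.2) KO-only and 10.4% (10.1 to 10.7) WT-only. A second setting was chosen after the data were seen. It divided each *Setdb1* KO pileup by the median ratio of all paired sites and kept peaks with −log10 p of 10 or more. The promoter shares were then 9.76% KO-only and 9.24% WT-only, against 14.1% and 7.25% of other autosomal peaks. In both settings promoters lay below the rest for KO-only and above it for WT-only. In the WT list 175 of 4586 promoter peaks had no *Setdb1* KO partner (WT-only), or 3.82% (3.30 to 4.41), against 3.26% of all autosomal WT peaks. By chromosome, the KO-only share of promoter peaks lay between 23.1% on chromosome 4 and 33.3% on chromosome 13. At the edge of the 1 kb window, the 427 *Setdb1* KO peaks in the last 100 bp inside it were 25.8% KO-only with a median fold enrichment of 10.0, and the peaks in the first 100 bp outside it were 28.5% KO-only with a median of 10.3.

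In genes, 5192 of 20807 autosomal protein-coding genes (24.95%) had a promoter peak in *Setdb1* KO and 4133 (19.9%) in WT. Both lists gave one to 3995 of these genes, the *Setdb1* KO list alone to 1197 and the WT list alone to 138. A single promoter peak was found at 4244 of the 5192 genes, and 33 genes had 4 or more. *Abr*, *Fry* and *Park7* had the most, each with 5 peaks in *Setdb1* KO against 3 in WT, of which 2 were KO-only, and *Prss57* had 5 in *Setdb1* KO against 2 in WT. *Park7* encodes the Parkinson disease protein DJ-1 and *Fry* a microtubule-associated protein of mitosis. *Abr*, *Fry* and *Park7* have 10 to 16 annotated starts, while *Prss57* has 4. A gene with many starts offers more windows, and the part of this in the counts was not tested.

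KO-only promoter peaks were the weak peaks of the list. Their median fold enrichment, the pileup (fragments over the summit) over the background with 1 added to each, was 4.70 (4.63 to 4.80), against 12.6 (12.3 to 13.0) for shared promoter peaks in the same list. The median pileup was 17 fragments against 53. Promoter peaks below a fold enrichment of 6.78 were 62.9% KO-only (60.8 to 64.8), and those from there to 14.2, bounds that cut the whole list into 3 equal classes, were 10.6% KO-only (9.26 to 12.1). In the highest class only 2 of 1918 promoter peaks were KO-only, those at *Svil* and *Dpep3*. Away from promoters the same classes were 70.0%, 15.9% and 0.787% KO-only, each above the promoter value. WT-only promoter peaks were weak too, with a median fold enrichment of 4.52 and 15 fragments, against 9.84 and 39 for shared promoter peaks in the WT list.

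CTCF was densest just upstream of the start. Among shared peaks in *Setdb1* KO the fullest 50 bp bin began 100 bp upstream and held 447 peaks, 10.2% of them, and 61.5% (60.04 to 62.9) of shared summits lay upstream. KO-only peaks were spread more evenly: their fullest bin began at the start itself and held 100 peaks (6.24%), and 52.1% (49.6 to 54.5) lay upstream. The median distance to the start was 342 bp (313 to 372) for KO-only, 278 bp for WT-only and 286 bp (268 to 302) for shared peaks. WT-only summits lay upstream in 54.3% (46.9 to 61.5).

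**Figure D1:**
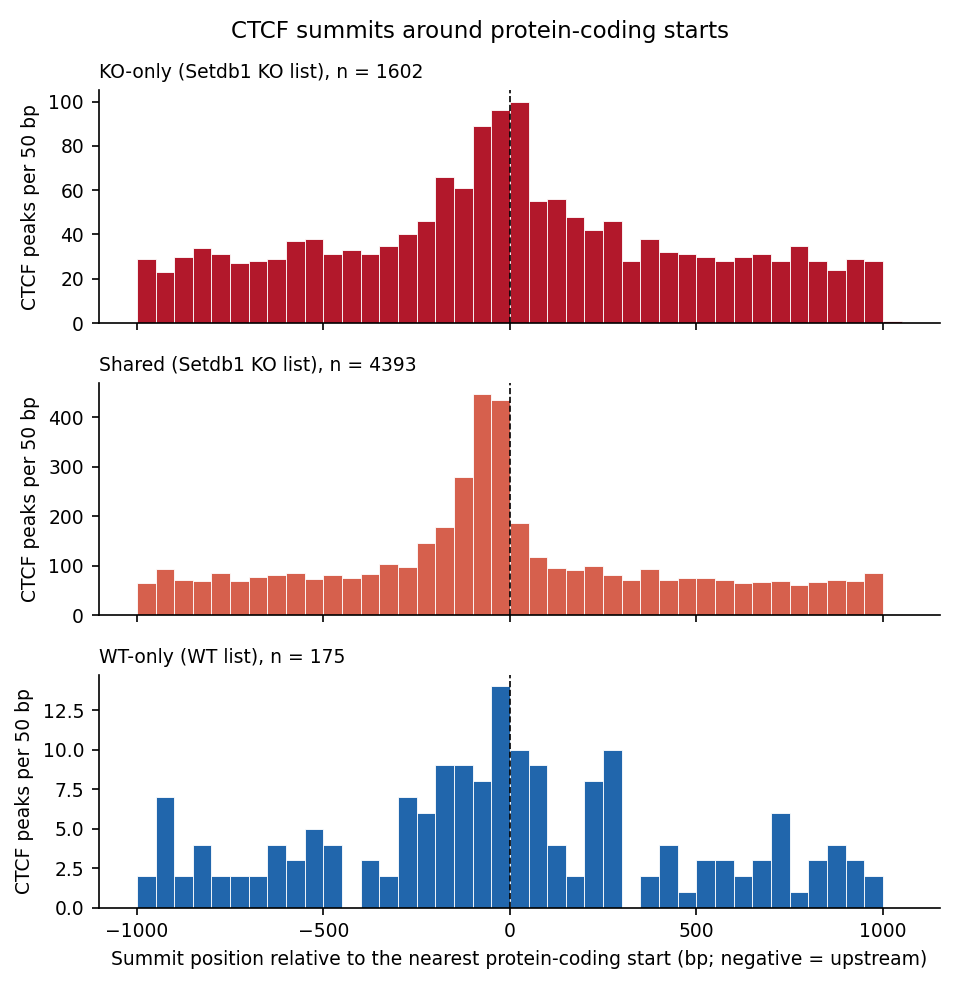
Number of CTCF summits per 50 bp (vertical axes, differing in scale) by position relative to the nearest protein-coding start (horizontal axis, bp), for KO-only and shared peaks of the *Setdb1* KO list and WT-only peaks of the WT list. The 4393 shared peaks pile up in the 100 bp upstream of the start, while the 1602 KO-only peaks lie about the start on both sides.

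The KO-only share was lowest just upstream of the start and highest just downstream of it. Peaks with their summit 1 to 100 bp upstream were 17.4% KO-only (15.2 to 19.7, n = 1066), and those 0 to 100 bp downstream were 33.9% KO-only (29.7 to 38.3, n = 463). The share was 22.3% in the next class upstream, out to 250 bp, 28.4% beyond 500 bp upstream and 29.2% beyond 500 bp downstream. Strength moved the other way, with a median fold enrichment of 13.2 just upstream and 6.78 just downstream. The motif, defined as a match above the 99th percentile of windows 1 kb to the left of all summits, was present in 55.2% (52.2 to 58.1) of peaks just upstream and 34.3% (30.2 to 38.8) just downstream.

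At single promoters the motif also had a direction there. Over all promoter types, just upstream of the start it read in the direction of the gene in 399 of 588 *Setdb1* KO peaks, or 67.9% (64.0 to 71.5), and in 384 of 547 WT peaks, or 70.2% (66.2 to 73.9). In the other position classes of the *Setdb1* KO list this share lay between 44.4% and 58.5%. Among peaks just upstream it was 40.9% (27.7 to 55.6) for the 44 KO-only peaks and 70.0% (66.1 to 73.7) for the 544 shared peaks with a motif, and these intervals do not overlap. At single promoters it was 68.9% (64.9 to 72.6), and at divergent ones the motif read with the gene at 13 of 29 peaks (44.8%, 28.4 to 62.5). It was 72.8% (67.9 to 77.2) at CpG-dense sites and 60.7% (54.4 to 66.6) at the others, CpG-dense meaning a GC content of at least 50% and a ratio of observed to expected CpG of at least 0.6 over 250 bp on either side of the summit.

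**Figure D2:**
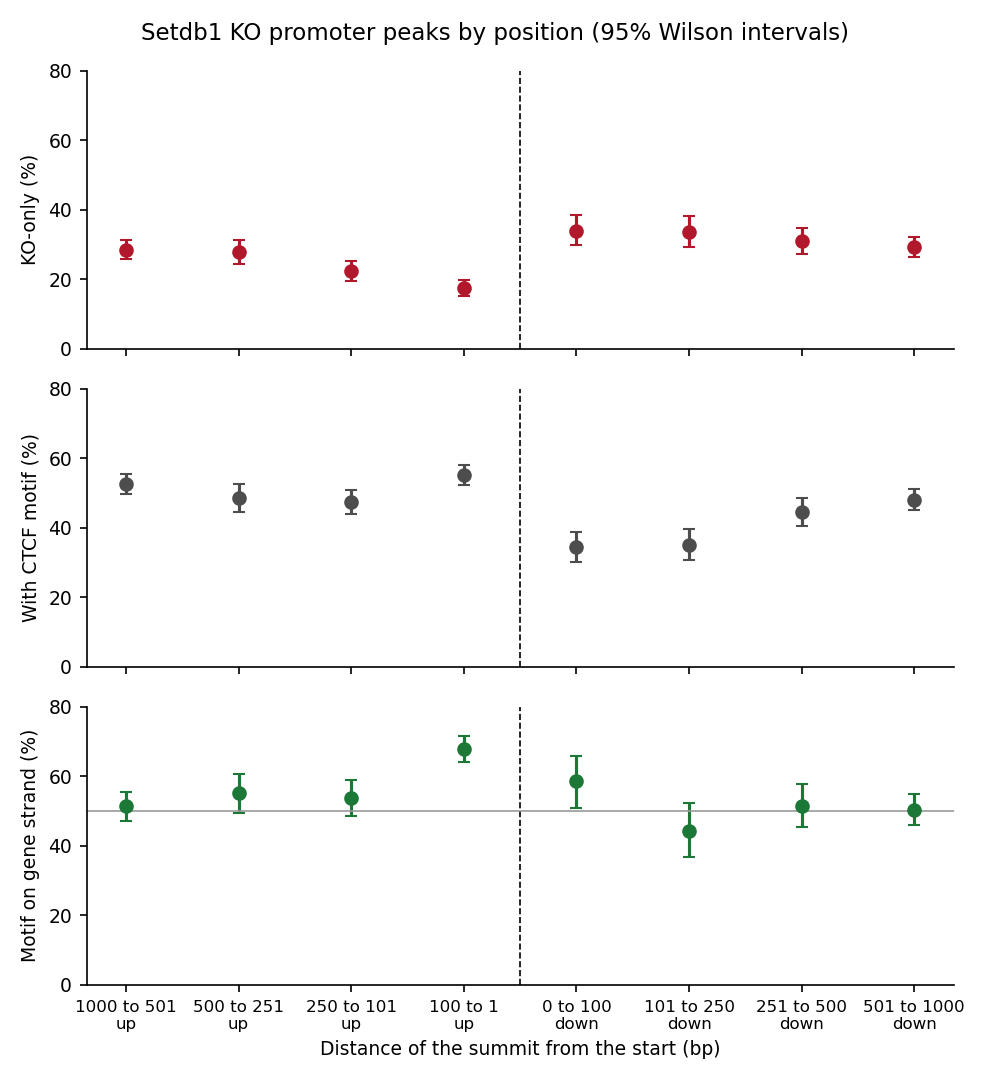
KO-only share, share with a CTCF motif and share of motifs that read in the direction of the gene (vertical axes, %) for *Setdb1* KO promoter peaks in 8 classes of distance from the start (horizontal axis, bp; the dashed line is the start). Points are shares with 95% Wilson intervals, and the class 100 to 1 bp upstream has the lowest KO-only share (17.4%) and the highest share of motifs in the direction of the gene (67.9%).

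Motifs were less common at KO-only promoter peaks, along with their weakness. A motif within 50 bp of the summit was found in 24.5% (22.4 to 26.6) of KO-only, 15.4% (10.8 to 21.5) of WT-only and 56.3% (54.8 to 57.7) of shared promoter peaks. Away from promoters the shares were 36.6% for KO-only and 65.5% for shared peaks. Among promoter peaks of the lowest class of fold enrichment the motif was in 22.1% (20.0 to 24.4) of KO-only and 25.1% (22.2 to 28.1) of shared peaks, and in the middle class in 40.5% (33.9 to 47.5) and 46.2% (43.8 to 48.6). The windows 1 kb to the left of promoter summits held it in 1.08%, and windows centred on protein-coding starts with no CTCF summit within 1 kb in 1.10%.

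Promoter motifs held far more CpGs than motifs elsewhere. Counted on the 14 bp core of the motif, position 2 began a CpG in 9.95% (7.36 to 13.3) of KO-only and 21.4% (19.8 to 23.1) of shared promoter motifs. Away from promoters the values were 0.806% (0.601 to 1.08) and 3.67% (3.44 to 3.92). Position 12 began a CpG in 42.3% (37.6 to 47.3) of KO-only and 55.1% (53.1 to 57.0) of shared promoter motifs, against 28.9% and 37.1% elsewhere. In both settings KO-only motifs had fewer CpGs than shared ones at either position. CpG-dense sequence itself was about as common at KO-only (31.1%, 28.9 to 33.5) as at shared promoter peaks (32.4%, 31.0 to 33.8).

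Where both lists had CTCF at a promoter, the *Setdb1* KO pileup was usually the higher. At 4259 sites 1 *Setdb1* KO peak paired with 1 WT peak and both summits were promoter summits. Their median ratio of *Setdb1* KO to WT pileup was 1.29 (1.275 to 1.294), with quartiles of 1.12 and 1.49, and 3711 of the 4259 sites had a ratio above 1. The 36605 paired sites away from promoters had a median of 1.37 (1.367 to 1.375) and the 40937 paired autosomal sites together one of 1.36. The genome-wide background was 2.19 fragments per base in *Setdb1* KO against 2.096 in WT, 1.04 times as many. This coverage joins read number and fragment length, which cannot be separated in it, and it differed less than the pileups did. With 1 library per condition, a better immunoprecipitation in *Setdb1* KO and more CTCF on chromatin cannot be told apart.

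The interval of the ratio lay above 1 at 920 promoter sites, which is 21.6% of them against 31.8% of all paired autosomal sites. It lay below 1 at 2 promoter sites (0.0470%), against 0.0464% of all paired sites. A ratio of at least 2 was found at 189 promoter sites, or 4.44%, against 9.44% of all paired sites. Measured against the genome's median ratio in place of 1, the interval lay above it at 72 promoter sites (1.69%, against 5.57% of all) and below it at 155 (3.64%, against 2.31% of all). Promoter sites therefore sat lower in the distribution of ratios than the rest.

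**Figure D3:**
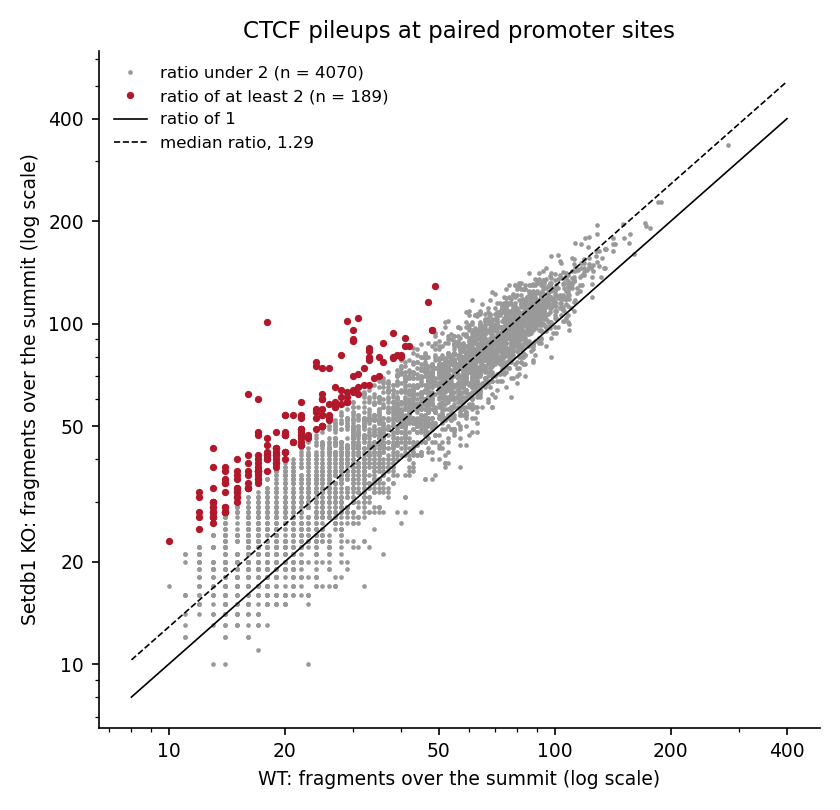
Fragments over the CTCF summit in *Setdb1* KO (vertical axis, log scale) and WT (horizontal axis, log scale) at the 4259 paired promoter sites, 1 point a site. Most points lie above the line of equal pileups, along the median ratio of 1.29, and the 189 sites with a ratio of at least 2 (red) have low to middling WT pileups.

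Base composition went with the ratio. Promoter sites had a median GC content of 54.1% around the summit, against 45.5% at shared peaks elsewhere. In sequence of up to 45% GC the median ratio was 1.41 (1.38 to 1.45) at promoters and 1.44 (1.43 to 1.44) elsewhere, and above 65% GC it was 1.22 (1.197 to 1.25) at promoters and 1.24 (1.2 to 1.30) elsewhere. In each of the 6 GC classes the promoter interval overlapped that of the other sites. At CpG-dense sites the median was 1.24 (1.22 to 1.25) at promoters and 1.25 (1.23 to 1.27) elsewhere. The gap remained at sites that were not CpG-dense, with 1.31 (1.30 to 1.32) at 2862 promoter sites and 1.375 (1.368 to 1.377) elsewhere. In sequence not masked as repeat it was 1.27 (1.26 to 1.28) at promoters and 1.33 (1.329 to 1.336) elsewhere, while at masked sites the intervals overlapped. With sites cut into classes by summed pileup, the promoter interval lay below the other in every class. Whether GC content took part in the lower promoter ratio through binding or through library preparation was not tested.

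**Figure D4:**
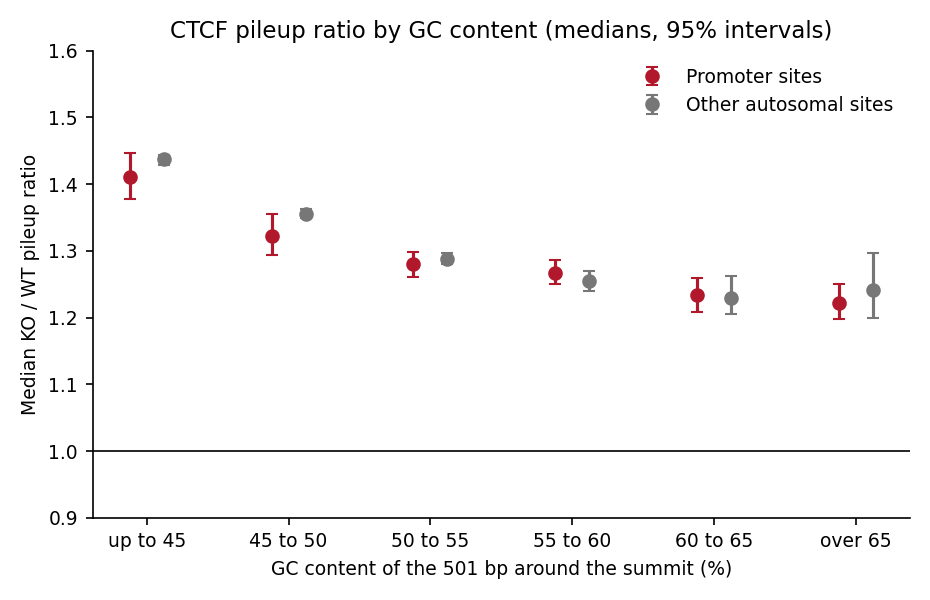
Median ratio of *Setdb1* KO to WT pileup (vertical axis, from 0.9) at paired promoter sites and other paired autosomal sites, by GC content around the summit (horizontal axis, %), with 95% order-statistic intervals. The ratio is highest in the GC-poorest class, 1.41 at promoters and 1.44 elsewhere, and the promoter and other medians lie close together within each class.

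The promoter sites with the largest ratios often lay in repeats. Sites with most of the sequence within 50 bp of the summit masked as repeat had a median ratio of 1.47 (1.41 to 1.52), against 1.27 (1.26 to 1.28) for unmasked promoter sites. Of the 189 sites with a ratio of at least 2, 37.0% (30.5 to 44.1) were masked, against 8.94% (8.11 to 9.86) of those with a lower ratio. CpG-dense sequence showed the opposite, with 15.9% (11.4 to 21.8) against 33.6% (32.2 to 35.1). KO-only peaks were also more often masked, 18.1% (16.3 to 20.1) against 10.5% (9.64 to 11.5) of shared promoter peaks. Away from promoters masked sequence was more common throughout, at 44.0% of KO-only and 26.3% of shared peaks.

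Many of these repeat sites carried nearly the same motif. The 30 bp below are shown for the masked sites with a motif among the 10 whose ratios had the highest lower bounds, for the unmasked *Ttyh3* among them, for 2 masked KO-only sites, which have no ratio, and for *Pik3r2* as a contrast. They run 5′ to 3′ in the direction of the motif, with the match in capitals and its position given (GRCm38.p6, RefSeq).
*Ckap2*, chr8:22176156-22176175, minus strand, paired, masked: cacggAGGCCAGAAGAGGGCGCCAGatcct
*Olfr1347*, chr7:6500550-6500569, plus strand, paired, masked: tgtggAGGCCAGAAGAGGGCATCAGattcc
*Dnah8*, chr17:30831376-30831395, plus strand, paired, masked: cttagATACCAGAAGAGGGCATCAGatctc
*Myo15b*, chr11:115876625-115876644, minus strand, paired, masked: atagaTGGCCAGAAGAGGGCGTCAGatctc
*Trim80*, chr11:115440090-115440109, minus strand, paired, masked: tgaggAGGCCAGAAGATGGCATCAGatccc
*Asl*, chr5:130015294-130015313, plus strand, paired, masked: catggAGGCCAGAAGGGGGCACTGGagttc
*Cox6b1*, chr7:30624077-30624096, plus strand, KO-only, masked: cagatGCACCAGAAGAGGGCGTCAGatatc
*Flot2*, chr11:78041080-78041099, minus strand, KO-only, masked: cctgcATGCCAGAAGAGGGCATCAGatctg
*Ttyh3*, chr5:140627779-140627798, plus strand, paired, unmasked: tgtggAGACCAGTAGAGGGCGCTGGctccc
*Pik3r2*, chr8:70769551-70769570, minus strand, paired, unmasked, tall in both lists: tctccTGCTCACCAGGGGGCGCTCGtgcgc
The masked *Elf2* site of the same 10 had no motif. Motifs are not shown for the unmasked *Gm11077* of the same 10 or for the masked KO-only sites at *Svopl* and *Dnah8*. Those of *Gm11077* and *Svopl* depart from the 12 letters given next. Letters 4 to 15 of the match read CCAGAAGAGGGC at 365 of the 514 masked promoter peaks with a motif (71.0%). Searched on both strands within 50 bp of the summit, after these motifs had been seen, the same 12 letters were present at 376 of 752 masked promoter peaks and 45 of 5243 unmasked ones (0.858%). At paired promoter sites they were present in 22.8% (17.4 to 29.2) of those with a ratio of at least 2 and 5.50% (4.84 to 6.25) of the others. KO-only promoter peaks held them in 8.74% (7.45 to 10.2), shared ones in 6.397% (5.71 to 7.16), other autosomal peaks in 15.7%, and windows at all protein-coding starts in 0.0432%.

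*Polrmt*, which encodes the RNA polymerase of mitochondria, had the site with the largest ratio. Its peak on chromosome 10, from 79738248 to 79739013, held 101 fragments in *Setdb1* KO against 18 fragments in WT, a ratio of 5.61 (3.38 to 9.85). The summit lay 153 bp downstream of a start in unmasked sequence, the WT summit was 33 bp away, and no motif was found. *Ckap2*, which encodes a spindle protein, held 102 fragments in *Setdb1* KO against 29 fragments in WT (ratio 3.52, 2.31 to 5.51) at 282 bp upstream. At *Ttyh3*, a chloride channel gene of the tweety family, the pileup was 104 in *Setdb1* KO against 31 in WT, a ratio of 3.35 (2.23 to 5.19), 537 bp upstream of a start within an intron. All 3 stood clear of the promoter median of 1.29.

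The remaining sites among the 10 with the highest lower bounds had fewer than 100 fragments in *Setdb1* KO. *Olfr1347*, an olfactory receptor gene, had 62 fragments in *Setdb1* KO against 16 fragments in WT. *Gm11077* had 96 in *Setdb1* KO against 30 in WT, and *Dnah8*, which encodes an axonemal dynein heavy chain, had 60 in *Setdb1* KO against 17 in WT. *Trim80* had 77 in *Setdb1* KO against 24 in WT, and *Elf2*, an ETS-family transcription factor gene, had 90 in *Setdb1* KO against 30 in WT. Each of these ratios was between 3.00 and 3.88. *Myo15b*, a myosin gene, had 75 fragments in *Setdb1* KO against 24 fragments in WT, and *Asl*, which encodes argininosuccinate lyase of the urea cycle, 89 in *Setdb1* KO against 30 in WT. Of the 10 sites 7 were masked as repeat, 8 held a motif, none was CpG-dense and all had a single start without an opposite partner.

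Lower pileups in *Setdb1* KO were rare. *Idnk*, a gluconate kinase gene, had 10 fragments in *Setdb1* KO against 23 fragments in WT, a ratio of 0.435 (0.185 to 0.9497), with the summits of the lists 137 bp apart. *Psme1*, which encodes a subunit of the PA28 proteasome activator, had 17 in *Setdb1* KO against 32 in WT, a ratio of 0.531 (0.277 to 0.986). These are the 2 promoter sites whose interval lay below 1, and neither held a motif. The next in order had intervals that include 1. They are *Zfp800* with 28 fragments in *Setdb1* KO against 45 fragments in WT, *Acot11*, an acyl-CoA thioesterase gene, with 38 in *Setdb1* KO against 57 in WT, *Cuedc1* with 21 in *Setdb1* KO against 36 in WT, and *Wt1*, a transcription factor gene of kidney and gonad development, with 26 in *Setdb1* KO against 40 in WT.

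**Figure D5:**
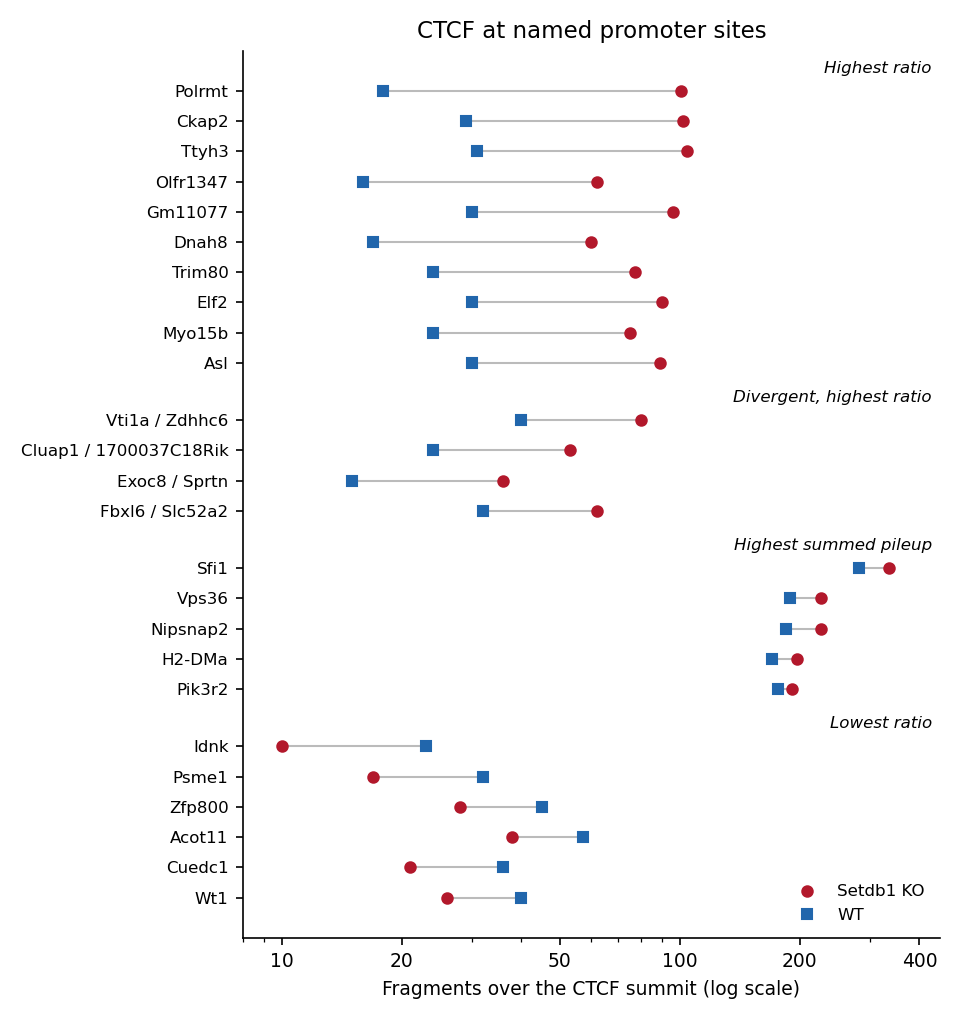
Fragments over the CTCF summit (horizontal axis, log scale) in *Setdb1* KO (circles) and WT (squares) at named paired promoter sites, grouped by the rule that chose them, so that the direction in the groups of highest and lowest ratios follows from their rule. The 10 sites with the highest ratios have 60 to 104 fragments in *Setdb1* KO and 16 to 31 in WT, while the 5 with the highest summed pileups have ratios between 1.08 and 1.23.

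Among KO-only promoter peaks, *Svil* and *Dpep3* were far stronger than the rest. The peak at *Svil*, the gene of supervillin, a protein that binds actin, spans chromosome 18 from 5114464 to 5115020, with a summit 413 bp downstream of a start in a coding exon. It held 78 fragments over a background of 2.19 (fold enrichment 24.8), and the nearest WT peak was 8219 bp away. The peak at *Dpep3* lay 76 bp upstream of the start, in the sequence given above, and held 97 fragments (fold enrichment 23.7) with the nearest WT peak 3485 bp away. The WT list contains peaks with as few as 9 fragments.

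The other 8 strongest KO-only promoter peaks had 37 to 44 fragments and fold enrichments of 11.2 to 12.5. *Svopl* had 44 fragments, *Myl4*, an atrial myosin light chain gene, 38, *Gm13420* 43 and *Nat8f7* 37. *Hmcn1*, which encodes the extracellular matrix protein hemicentin, had 40, *Flot2*, a gene for the membrane raft protein flotillin, 38, a second site of *Dnah8* 39 and *Cox6b1*, which encodes a subunit of cytochrome c oxidase, 38. At *Flot2* and *Dnah8* a WT peak lay 1239 and 1459 bp away, and at the other 6 the nearest WT peak was over 4 kb away. Of the 10 strongest, 8 held a motif.

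The strongest WT-only promoter peaks were weaker. *Gadl1* had 26 fragments in WT (fold enrichment 8.72), *Trp53bp1*, which encodes the DNA break repair protein 53BP1, had 28 (8.36), and *Zbtb42* had 24 (8.08). *Gne*, which encodes an enzyme of sialic acid synthesis, had 23 (7.64) and the ubiquitin ligase gene *Rnf122* had 26 (7.33). A motif was found at *Gne* and *Rnf122* and not at the other 3, and that of *Gne* lay in a repeat.

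Divergent promoters, where another protein-coding gene starts head to head on the opposite strand within 1 kb, had a higher KO-only share in the lists as deposited. Of 234 *Setdb1* KO peaks at divergent promoters 82 were KO-only, or 35.0% (29.2 to 41.4), against 1503 of 5687 at single promoters, or 26.4% (25.3 to 27.6). A further 74 peaks at starts whose opposite partner overlapped were 23.0% KO-only (14.9 to 33.7). In the WT list 8 of 158 divergent peaks were WT-only (5.06%, 2.59 to 9.67), against 165 of 4369 single ones (3.78%). Divergent peaks were also weaker, with a median fold enrichment of 6.88 against 9.15, and within the lowest class of fold enrichment the KO-only shares were 64.7% (55.6 to 72.8) and 62.8% (60.7 to 64.8). Within 100 bp of the start they were 23.4% (16.0 to 32.9) and 22.4% (20.3 to 24.7). In CpG-dense sequence the shares were 36.4% (28.7 to 44.8) and 25.3% (23.4 to 27.4), and in other sequence 33.3% (24.9 to 42.9) and 26.9% (25.5 to 28.3), where the intervals overlap. The intervals also overlapped with lists of equal length, at 9.02% (5.24 to 15.1) divergent and 8.51% (7.69 to 9.41) single, and with the lowered *Setdb1* KO pileups, at 12.7% (7.86 to 19.9) and 9.68% (8.76 to 10.7).

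Divergent sites were closer to the start, more often CpG-dense and less often had a motif. The median distance was 158 bp against 309 bp at single promoters, 56.4% against 30.8% were CpG-dense, and 39.3% (33.3 to 45.7) against 48.2% (46.9 to 49.5) held a motif. The summit lay between the paired starts in 66 of 234 cases (28.2%). At 149 paired divergent sites the median pileup ratio was 1.26 (1.2 to 1.31), which overlaps the 1.29 (1.28 to 1.30) of 4053 single sites. Of all annotated starts, 18.3% of divergent ones had a CTCF summit within 1 kb in *Setdb1* KO and 12.8% in WT, against 14.9% in *Setdb1* KO and 11.7% in WT of single ones. Divergent starts were CpG-dense in 84.6%, against 36.7% of single ones. CpG-dense starts of any type had a summit within 1 kb in 22.7% in *Setdb1* KO, against 10.1% of other starts. Divergent and single starts were not compared at equal CpG density.

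*Vti1a*, which encodes a SNARE of Golgi transport, and *Zdhhc6*, a palmitoyltransferase gene, shared the divergent site with the highest lower bound, with 80 fragments in *Setdb1* KO against 40 fragments in WT (ratio 2.00, 1.35 to 3.00). *Cluap1*, a gene of intraflagellar transport, and 1700037C18Rik had 53 in *Setdb1* KO against 24 in WT (ratio 2.21, 1.34 to 3.74). *Exoc8*, an exocyst subunit gene, and *Sprtn*, which encodes a protease of DNA-protein crosslinks, had 36 in *Setdb1* KO against 15 in WT. These pairs were followed by *Fbxl6* and the riboflavin transporter gene *Slc52a2*, with 62 in *Setdb1* KO against 32 in WT. None of the 4 was masked as repeat and 3 were CpG-dense.

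The strongest KO-only peaks at divergent promoters had 30 to 40 fragments. The pair *Rpain*, for nuclear import of the single-strand DNA-binding protein RPA, and *Nup88*, a nuclear pore gene, had 40. *Frs3*, an adaptor gene of FGF receptors, and *Prickle4* had 34, *Abhd14b* and *Abhd14a* 31, and *Plekha4* and the stress-response phosphatase subunit gene *Ppp1r15a* 30. The summit at *Abhd14b* lay 5 bp downstream of its start, with a WT peak 735 bp away.

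The tallest promoter sites had ratios below the promoter median of 1.29. *Vps36* had 227 fragments in *Setdb1* KO against 189 fragments in WT (ratio 1.201, 0.986 to 1.46), and *Nipsnap2* had 227 in *Setdb1* KO against 185 in WT (ratio 1.23, 1.01 to 1.50). *H2-DMa*, which encodes a chain of the peptide loader of MHC class II, had 197 in *Setdb1* KO against 171 in WT, and *Pik3r2*, a regulatory subunit gene of PI3 kinase, 191 in *Setdb1* KO against 177 in WT. All 4 held a motif and lay within 238 bp of a start. *Sfi1*, a centrosome gene, had the highest pileup of all, 335 in *Setdb1* KO against 282 in WT, but over a background of 89.9 fragments in *Setdb1* KO, which gives fold enrichments of 3.70 in *Setdb1* KO and 3.55 in WT. No motif was found at it.

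Genes named within the families and lists below were taken first by their strongest KO-only peak, then by their highest ratio. They therefore lean towards gain in *Setdb1* KO. By gene family, the clustered protocadherins stood out for how many had CTCF at a start. These neuronal adhesion genes are known for CTCF sites at their alternative promoters, and 53 of 57 had a promoter peak in *Setdb1* KO and 50 of 57 in WT, against 24.95% of all genes in *Setdb1* KO and 19.9% in WT. KO-only peaks made up 12 of the 63 found in *Setdb1* KO (19.05%, 11.2 to 30.4) and the median ratio of 47 paired sites was 1.42. Neighbouring promoters of the cluster resemble each other in sequence, and only uniquely aligned reads had been kept. Near *Pcdha11* a KO-only peak 48 bp upstream of a start held 32 fragments, and a shared peak 21 bp upstream of another held 72 in *Setdb1* KO against 42 in WT (ratio 1.71, 1.16 to 2.57). KO-only peaks at *Pcdhb20* and *Pcdhb21* held 32 and 36 fragments.

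Olfactory and vomeronasal receptor genes were at the other end. Of 1455 such genes 28 (1.92%) had a promoter peak in *Setdb1* KO against 15 in WT. Of their 29 peaks in *Setdb1* KO 15 were KO-only (51.7%, 34.4 to 68.6), an interval above the promoter average of 26.7%. The strongest KO-only one, at *Olfr452*, held 34 fragments with a motif, and those at *Olfr1039* and *Olfr516* held 21 each. *Zfp* genes, many of which encode KRAB zinc finger repressors, were near the average, with 93 of 385 bound in *Setdb1* KO against 70 in WT, 29 of 107 peaks KO-only (27.1%) and a median ratio of 1.30. The KO-only peak 42 bp upstream of *Zfp64* held 33 fragments. *Hox* genes had 7 of 39 bound in each list (17.9%, 8.98 to 32.7), with 1 of 8 *Setdb1* KO peaks KO-only (12.5%, 2.24 to 47.1). *Hoxb5* had 92 fragments in *Setdb1* KO against 59 fragments in WT (ratio 1.56, 1.11 to 2.20).

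Gene groups of cellular machines are set beside the 24.95% of all genes bound in *Setdb1* KO and the 26.7% of promoter peaks that were KO-only. The intervals of the mitochondrial ribosomal and proteasome groups hold both of these values. Ribosomal protein genes had a promoter peak at 37 of 90 in *Setdb1* KO (41.1%, 31.5 to 51.4) and 28 of 90 in WT, with 11 of 41 peaks KO-only (26.8%). That list was matched by symbol and also holds the kinase gene *Rps6ka5*, which had 26 fragments at a KO-only peak, while *Rps19* had 23 and *Rpl23a* 19. Mitochondrial ribosomal proteins had 24 of 78 bound in *Setdb1* KO (30.8%, 21.6 to 41.7) against 21 in WT, with 9 of 28 peaks KO-only (32.1%, 17.9 to 50.7). Proteasome subunits had 10 of 38 bound in *Setdb1* KO (26.3%, 14.97 to 42.0) against 8 in WT, with 5 of 11 peaks KO-only (45.5%, 21.3 to 72.0), the one of highest fold enrichment (7.68) being at *Psmb5*, a catalytic subunit gene. Subunits of respiratory complex I had 14 of 44 bound in each list (31.8%) and 1 of 18 peaks KO-only (5.56%, 0.988 to 25.8), and *Ndufv1* had 40 fragments in *Setdb1* KO against 20 fragments in WT (ratio 2.00, 1.14 to 3.61). Solute carriers were close to the genome, with 94 of 329 bound in *Setdb1* KO against 80 in WT and 28 of 116 peaks KO-only. Histone genes had 10 of 75 bound in *Setdb1* KO (13.3%, 7.41 to 22.8) against 7 in WT, and *H2afz*, the gene of the variant H2A.Z, had 38 fragments in *Setdb1* KO against 14 fragments in WT (ratio 2.71, 1.44 to 5.42).

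Of 23 pluripotency genes 9 were bound in *Setdb1* KO (39.1%, 22.2 to 59.2, against 24.95% of all genes) and 7 in WT, with 3 of 11 peaks KO-only (27.3%, against 26.7% of promoter peaks). *Sall4*, a zinc finger factor of ESCs, had KO-only peaks of 27 and 15 fragments at 3 and 47 bp downstream of separate starts, and *Lefty1*, a Nodal antagonist, one of 15. At *Pou5f1*, which encodes OCT4, a masked site 346 bp upstream had 30 fragments in *Setdb1* KO against 13 fragments in WT (ratio 2.31, 1.17 to 4.82), and a site 699 bp downstream had 31 in *Setdb1* KO against 24 in WT. *Klf4* had 52 in *Setdb1* KO against 34 in WT (ratio 1.53, 0.974 to 2.43). No paired site of this list had an interval above the genome's median ratio of 1.36.

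Of 20 trophectoderm genes 4 were bound in *Setdb1* KO (20.0%, 8.07 to 41.6, against 24.95% of all genes) and 5 in WT. KO-only peaks made up 2 of 6 (33.3%, 9.68 to 70.0, against 26.7% of promoter peaks). *Eomes*, a T-box factor of trophoblast and mesendoderm, had KO-only peaks of 22 and 14 fragments on either side of a start. *Elf5*, a trophoblast factor, had 120 fragments in *Setdb1* KO against 79 fragments in WT (ratio 1.52, 1.13 to 2.04) at a site 2 bp from a start and 100 in *Setdb1* KO against 61 in WT at another. *Tfap2c*, in contrast, was level, with 98 in *Setdb1* KO against 102 in WT (ratio 0.961, 0.721 to 1.28). Germline genes had 4 of 24 bound in *Setdb1* KO against 2 in WT, and both KO-only peaks lay close upstream of a start, at *Dpep3* and, with 19 fragments 98 bp upstream, at *Tdrd1*, a gene of the piRNA pathway. *Sycp2*, a gene of the synaptonemal complex, had 104 in *Setdb1* KO against 74 in WT, and *Dazl*, an RNA-binding protein gene of germ cells, 35 in *Setdb1* KO against 26 in WT.

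Imprinted genes had 11 of 32 bound in *Setdb1* KO (34.4%, 20.4 to 51.7) against 9 in WT, with 6 of 15 peaks KO-only (40.0%, 19.8 to 64.3), and both intervals hold the values over all genes (24.95%) and all promoter peaks (26.7%). *Mest* had a KO-only peak of 32 fragments 183 bp downstream of a start beside a paired site with 28 in *Setdb1* KO against 20 in WT and another with 16 in *Setdb1* KO against 19 in WT. *Commd1* had KO-only peaks of 32 and 15 fragments, the weaker at a start that faces *Zrsr1*, and *Gnas*, which encodes a G protein subunit, one of 15. Among genes of H3K9 methylation 3 of 21 were bound in *Setdb1* KO (14.3%, 4.98 to 34.6) against 4 in WT. None of their 4 *Setdb1* KO peaks was KO-only, with an upper bound of 49.0%. *Trim28*, which encodes the corepressor KAP1 that recruits SETDB1, had 55 fragments in *Setdb1* KO against 30 fragments in WT (ratio 1.83, 1.15 to 2.96). That site lay 958 bp downstream of the nearest annotated start of the gene, outside every protein-coding transcript. Of DNA methylation genes 5 of 15 were bound in *Setdb1* KO (33.3%, 15.2 to 58.3) against 3 in WT. Of their 5 peaks 2 were KO-only (40.0%, 11.8 to 76.9), at *Mbd1* (22 fragments) and *Dnmt1* (21 fragments in masked sequence). The intervals of the H3K9 and DNA methylation groups also hold the values over all genes and all promoter peaks.

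CTCF itself and cohesin genes were bound at 7 of 16 in each list (43.75%, 23.1 to 66.8), against 24.95% of all genes in *Setdb1* KO and 19.9% in WT. Of their 10 *Setdb1* KO peaks 1 was KO-only (10.0%, 1.79 to 40.4, against 26.7% of promoter peaks). The interval of 1 paired site in this list lay below the genome's median ratio of 1.36. *Smc3*, which encodes a core subunit of cohesin, held paired sites of 66 fragments in *Setdb1* KO against 44 fragments in WT and, at another start, 45 in *Setdb1* KO against 21 in WT (ratio 2.14, 1.25 to 3.79), and a KO-only peak of 14. *Stag1*, also a cohesin subunit gene, had 65 in *Setdb1* KO against 47 in WT, and *Ctcfl*, the germline paralogue of CTCF, 28 in *Setdb1* KO against 19 in WT. Of 32 cell cycle genes 10 were bound in *Setdb1* KO against 8 in WT, with 4 of 13 peaks KO-only. The KO-only peaks of this list lay at *Cdc25a* (20 fragments), *Ccna2*, which encodes cyclin A2 (18, 11 bp upstream of the start), *Mycn* (16) and *Rbl2* (15), all of them among the weak peaks.

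Promoter peaks also differed in where they fell in genes. Of KO-only summits 24.0% (21.9 to 26.1) lay outside every protein-coding gene, against 31.9% (30.5 to 33.3) of shared ones. In coding exons lay 13.0% (11.4 to 14.7) against 9.11% (8.29 to 9.99), and in introns 43.3% against 42.1%. Many of these starts belong to alternative transcripts, since 55.7% of KO-only and 57.1% of shared promoter summits lay within 1 kb of the 5′ end of a gene record. A long noncoding RNA start was also within 1 kb of 6.30% of KO-only and 6.601% of shared promoter peaks, and 321 of 5995 *Setdb1* KO peaks lay near starts of 2 or more protein-coding genes. Of 7 exact strings of other promoter factors, searched on either strand within 50 bp, those of ZNF143 and NRF1 had intervals at shared promoter peaks, 0.313% to 0.730% and 0.173% to 0.506%, that overlap those at all protein-coding starts. The other 5 were less common at shared promoter peaks than at starts. Windows were centred on the CTCF summit for peaks and on the start itself for starts, so the shares come from unlike positions. The ETS string CCGGAAGT was in 0.375% of KO-only and 0.592% of shared promoter peaks, against 2.40% of all starts, and the YY1 string AANATGGC in 2.00% of KO-only and 1.53% of shared promoter peaks, against 3.86%. The SP1 string GGGGCGGGG was in 1.75% of KO-only and 2.05% of shared promoter peaks, against 4.44% of all starts, the NF-Y string CCAATNA in 1.75% and 1.66%, against 3.65%, and the TATA box string TATAAA in 3.12% and 2.00%, against 3.87%.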

How the data were processed

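Reads had been mapped by the authors with Bowtie 1.2 to the mm10 build, keeping unique alignments, followed by duplicate removal with Picard and peak calling per library with MACS2 2.1.0. The deposited fold enrichment divides the pileup by the background after a pseudocount of 1 is added to each, and p and q are deposited as −log10 values. The deposited score is a whole-number form of the −log10 q and was not used. The pileup and background of each peak were recovered by solving the fold enrichment and Poisson p together, to within 0.001 on −log10 p, for 100% of peaks. Shares have Wilson intervals, pileup ratios Clopper-Pearson intervals and medians order-statistic intervals, at 95%. They measure counting error only, and no p-value was computed with 1 library per condition. The motif matrix came from the 1000 shared *Setdb1* KO peaks of highest −log10 q. Masked means that most of the bases within 50 bp of the summit are soft-masked in the RefSeq GRCm38.p6 sequence, and starts are from GENCODE vM21. Positions of peaks are counted from 1.

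The members and gene lists were chosen with earlier results of these data known. Genes were named by rule: paired sites with the 10 highest lower and 6 lowest upper bounds of the ratio, the 10 KO-only and 5 WT-only peaks of highest fold enrichment, the 5 highest summed pileups, 4 paired and 4 KO-only divergent sites, the 3 genes with the most peaks and up to 4 genes of each list. Within each list, genes with a KO-only peak of the highest fold enrichment came first, then those with the paired site of the highest ratio. The named genes of a list thus lean towards gain in *Setdb1* KO and do not stand for the whole list. Not all listed genes are printed. Scripts were tested on simulated data (Python 3.11.15, numpy 2.4.6, scipy 1.17.1, pandas 2.3.3, samtools 1.23.1). Alternatives concerned the overlap, the window, the starts, the peak threshold, equal list lengths, chromosome 5, the divergent spacing and the motif threshold, and 1 scaling of the pileups was added after the data were seen.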

Additional observations from a re-analysis of the deposited data

How the results depend on the processing

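Of 71 alternative values of the promoter results 41 stayed within the interval of the reported value and 30 moved out of it. Equal list lengths gave 8.51% KO-only and 14.5% WT-only promoter peaks, 9.02% KO-only at divergent and 8.51% at single promoters, a median ratio of 1.30 and a median KO-only distance of 409.5 bp. The equal length itself removes most KO-only peaks. Dividing *Setdb1* KO pileups by the median ratio and keeping peaks with −log10 p of 10 or more, chosen after seeing the data, gave 9.76% KO-only and 9.24% WT-only, and 12.7% and 9.68% KO-only at divergent and single promoters. KO-only shares of promoter and single-promoter peaks were 32.0% and 31.8% with a reciprocal overlap of 50%, 28.7% and 28.4% with summits within 100 bp, 23.1% and 22.8% with no WT peak within 1 kb, and 24.8% and 24.5% with −log10 q of at least 5. The WT-only share was 11.3%, 6.93% and 2.9001% under the first 3 of these. The median ratio was 1.27 with summits within 500 bp, 1.27 with 1 start per gene and 1.27 with protein_coding transcripts only, and the last 2 gave a median shared distance of 260 bp each. Motif shares of KO-only and shared peaks were 50.6% and 78.8% at the 95th percentile, and 18.3% and 43.7% within 100 bp. The KO-only promoter share stayed below that of other autosomal peaks, and the promoter ratio below theirs, under every alternative run. No paired analysis was possible because each condition had 1 peak list. Peaks with few fragments have wide intervals, and a site absent from a list may lie below its threshold.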
